A study of Homo sapiens with 7 samples.

Results

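The RAB genes encode small GTPases of membrane traffic, and 61 of the 20072 gene symbols measured in HCT116 cells carry a symbol made of RAB, a number and at most 1 letter. HCT116 is an established human colorectal carcinoma line, here unmodified and in logarithmic growth in serum-free medium with EGF, insulin and transferrin. Transcription rate (TR) was read by GRO-seq in 2 libraries, mRNA abundance (RA) by RNA-seq in 3 and translation activity (TA) by sequencing of polysome-bound mRNA in 2. The polysome cells alone received cycloheximide, which holds ribosomes on the mRNA. The study calls the libraries of each assay biological replicates, while the labels only number them and do not state separate cultures, so the p-values measure the spread between these libraries. TR was read from isolated nuclei, RA from mRNA isolated out of total RNA and TA from mRNA isolated out of polysome fractions. The labelled nascent RNA of TR was captured with antibody beads, and the study describes no mRNA isolation for it. Each assay pooled many cells, so fewer cells with an mRNA and less of it per cell cannot be told apart.

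A RAB protein switches between a GTP-bound form that recruits effectors to a membrane and a GDP-bound form that a dissociation inhibitor can extract from it. Exchange factors load GTP, GTPase-activating proteins speed its hydrolysis, and a geranylgeranyl anchor added with the help of escort proteins holds the protein on the membrane. Each RAB marks a step of traffic, such as ER to Golgi transport, endosome fusion, recycling to the surface or secretion. Intestinal epithelial cells depend on these steps to keep their apical and basolateral surfaces distinct.

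RAB proteins bind guanine nucleotides through a loop that holds the phosphates. The stretch of 60 coding bases at this loop is shown for 3 pairs of close relatives, with capitals where the bases of a pair differ. They were chosen after their values were seen, and each holds 1 of the RAB genes highest in TA against RA. Some pairs not shown differed more in TA against RA than RAB11A and RAB11B. The sequences are those of GENCODE release 44 lifted to GRCh37, written 5′ to 3′ on the coding strand, and each begins on a codon.
RAB1A: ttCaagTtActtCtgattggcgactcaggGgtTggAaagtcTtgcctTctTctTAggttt
RAB1B: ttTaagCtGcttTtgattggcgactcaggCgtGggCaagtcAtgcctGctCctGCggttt
RAB8A: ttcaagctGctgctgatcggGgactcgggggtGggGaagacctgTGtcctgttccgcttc
RAB8B: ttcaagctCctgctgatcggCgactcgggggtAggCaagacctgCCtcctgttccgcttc
RAB11A: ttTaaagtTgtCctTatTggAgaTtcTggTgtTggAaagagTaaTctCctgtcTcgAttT
RAB11B: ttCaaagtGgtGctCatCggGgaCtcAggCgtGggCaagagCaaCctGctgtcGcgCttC
The RAB1A window lies in exon 2 at chr2:65331871-65331930 on the minus strand and the RAB1B window in exon 2 at chr11:66039278-66039337 on the plus strand. The RAB8A window lies in exon 1 at chr19:16222736-16222795 and the RAB8B window in exon 1 at chr15:63481848-63481907, both on the plus strand. The RAB11A and RAB11B windows run from exon 1 into exon 2 across an intron, at chr15:66161957-66169722 and chr19:8455334-8464799 on the plus strand.

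RAB11A and RAB11B differed at 17 of the 60 bases, and all 17 were wobble positions, the last base of a codon. G or C filled 4 of the 20 wobble positions in RAB11A and 18 of 20 in RAB11B. RAB1A and RAB1B differed at 12 bases, 9 of them wobble positions, with G or C at 9 and 14 of 20. RAB8A and RAB8B differed at 6 bases, 5 of them wobble positions, with G or C at 19 of 20 in both. A single codon pattern of the loop, GGNGANNNNGGNGTNGGNAA, which every window above holds, was searched in frame on the coding strand only. It was found in 26 of the 61 RAB coding sequences (42.6%) and in 33 of the 17901 coding genes searched (0.184%), the RAB genes included. These shares count this pattern and not the loop, which genes without the pattern, such as RAB5A, may encode with other codons.

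TR, RA and TA were deposited as RPKM, reads scaled by exon length and by the size of the library. The library sizes recovered from the values ran from 3391897 to 5629982 reads for TR, from 20299018 to 22532134 for RA and from 22421062 to 30805391 for TA, so TR rests on the fewest reads. Of 12 epithelial markers, 10 reached 1 RPKM in RA, and VIL1 and LGALS4 did not. Of the markers of other cell types, CD68 alone of 6 leukocyte genes, COL1A1 alone of 8 fibroblast and endothelial genes and SYT1 and GAD1 of 6 neuronal genes reached it. Genes whose mean reached 1 RPKM in TR, RA or TA were tested with limma on log2(RPKM + 0.1), with Benjamini-Hochberg adjustment over all 14305 of them and a threshold of 0.05. A log2 ratio below is a difference on that scale, and it sets shares of separately scaled libraries side by side.

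Of the 61 RAB genes, 53 were tested and 46 reached 1 RPKM in all 3 parameters. Counts are given over these 46, because a gene tested through 1 parameter alone had to differ. They are set beside the 10825 genes of the whole table at the same level. RAB33A, RAB40A, RAB41, RAB42, RAB43 and RAB44 were tested through TR alone, and RAB30 reached 1 RPKM in TR and RA only. RAB34, RAB39A, RAB39B, RAB6C and RAB9B stayed below 1 RPKM in all 3 parameters, and RAB32, RAB3C and RAB4B are listed at 0 in all 7 libraries. The exons of RAB4B are shared over 36.8% of their length with read-through genes, and its neighbour EGLN2 is listed at 0.237 RPKM in RA. Whether shared reads were dropped for RAB4B was not tested. The smallest library held a median of 163 reads per gene over the 46, and RAB19 had the fewest, at 12 reads.

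On the log2 scale, the SD across the 46 RAB genes was larger in TA than in TR, although RAB26 gave TR the highest single value, 336 RPKM against 106 for RAB11B in TA. The median RAB gene had a TR of 15.4 RPKM, an RA of 16.9 and a TA of 13.6, and the median of the 10825 genes was 17.6, 14.6 and 11.4. The SD of log2 RPKM across the RAB genes was 1.13 in TR, 1.46 in RA and 1.89 in TA, against 1.29, 1.67 and 1.95 across all genes. All RAB genes together took 0.334% and 0.335% of the summed RPKM of the TR libraries, 0.322% to 0.352% in RA and 0.256% and 0.273% in TA. RAB26 alone made up 27.1% and 31.4% of the RAB sum in the TR libraries and at most 0.761% of it in an RA library. With RAB26 left out, the RAB share was 0.244% and 0.23% in TR, 0.321% to 0.35% in RA and 0.255% and 0.272% in TA.

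**Figure D1:**
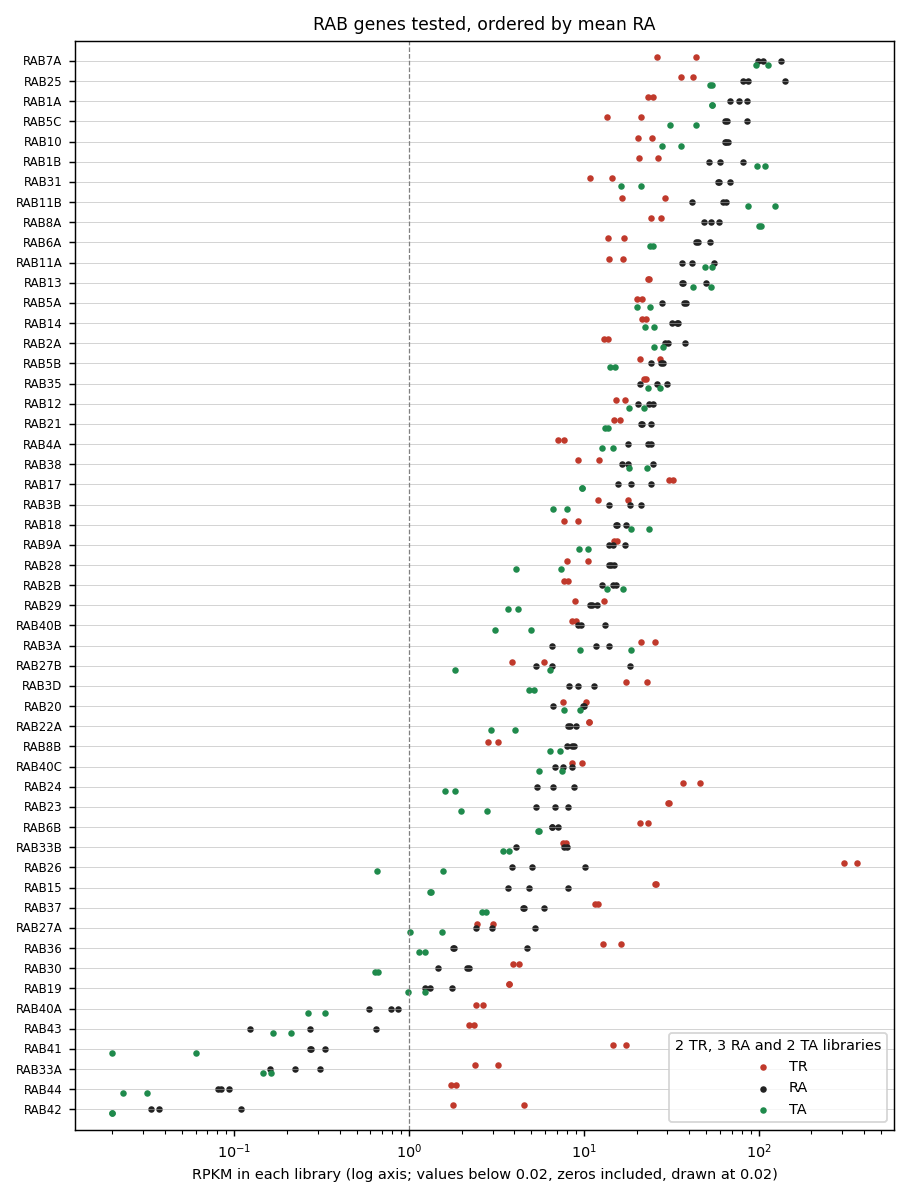
RPKM of the 53 RAB genes tested in each of the 2 TR (red), 3 RA (black) and 2 TA (green) libraries, on a log axis, with genes ordered by mean RA and a dashed line at 1 RPKM. RAB26 lies far to the right in TR, at 307 and 366 RPKM, and the 6 genes tested through TR alone lie at the bottom with RA and TA below the line.

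By mean RA, the most abundant RAB mRNA was RAB7A, which drives late endosome maturation and fusion with lysosomes. Its RA was 134, 99 and 106 RPKM, its TR 43.9 and 26.2 and its TA 96.6 and 113. RAB25, an epithelial relative of RAB11, had an RA of 81.4, 141 and 86.5 RPKM, a TR of 42.1 and 35.9 and a TA of 52.4 and 54.4. In both genes every RA library was above every TR library, and in RAB25 every TA library was below every RA library. In the same order, RAB1A (77.2 ± 8.56 RPKM, SD, n = 3), RAB5C (72.2 ± 12.2), RAB10 (65.4 ± 1.38), RAB1B (64.3 ± 14.8), RAB31 (62.1 ± 5.45) and RAB11B (56.4 ± 12.9) followed. These means lie close beside their SDs, and neighbours in the order from RAB1A to RAB11B overlapped in their libraries.

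The step from TR to RA is compared by log2(RA/TR), which the study reads as an estimate of mRNA stability. RA was higher than TR in 22 of the 46 RAB genes and lower in 11, and 13 were not called. Of all genes at this level, 24.7% were higher and 34.2% lower. The median log2(RA/TR) was 0.51 over the RAB genes and -0.17 over all genes. Each library was also centred on its median over genes, a scaling that moved the all-gene median to 0.51. In it the RAB genes had 30 higher and 8 lower calls and a median of 1.18. Of all 14305 genes tested, a wider set, 5066 were higher and 4814 lower in that scaling. Of the 22 higher calls, 16 held when each library was left out in turn: RAB11B was lost without TR replicate 2, RAB21 and RAB38 without TR replicate 1, RAB13 and RAB5A without either TR library, and RAB12 without either TR library or RA replicates 2 or 3. Of the 11 lower calls, 9 held, and RAB17 and RAB3A were lost without either TR library.

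RAB31, which acts between the trans-Golgi network and endosomes, had the highest ratio. Its TR was 14.5 and 10.9 RPKM, its RA 68.4, 58.8 and 59 and its TA 16.2 and 21.1. RA was 4.9-fold above TR (log2 ratio 2.29, SE 0.20, adjusted p = 2.2e-05), and the groups did not overlap. The early endosome GTPase RAB5C had a TR of 21.2 and 13.6 RPKM, an RA of 86.2, 64.2 and 66.1 and a TA of 31 and 43.7, with a log2(RA/TR) of 2.07 (SE 0.26, adjusted p = 0.00018). RAB7A followed at 1.72 (SE 0.26, adjusted p = 0.0005). The TR of RAB31 and RAB5C lay near the RAB median of 15.4 RPKM, while their RA was among the highest. Other genes overlap 30.4% of the RAB5C exon bases, mostly a coding gene on the same strand, and its part was not tested.

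RAB1A, which with RAB1B carries ER to Golgi transport, had a TR of 25 and 23.3 RPKM and an RA of 77.1, 85.9 and 68.8, with a log2(RA/TR) of 1.67 (SE 0.16, adjusted p = 4.6e-05). RAB6A, of retrograde traffic through the Golgi, had a TR of 16.9 and 13.7 RPKM, an RA of 43.5, 52.5 and 44.9 and a TA of 24 and 24.9. Its log2(RA/TR) was 1.61 (SE 0.17, adjusted p = 7.1e-05). RAB10, which serves basolateral and insulin-regulated delivery to the surface, had a TR of 24.5 and 20.5 RPKM, an RA of 64.1, 66.9 and 65.1 and a TA of 28.1 and 35.8, with a log2(RA/TR) of 1.54 (SE 0.17, adjusted p = 0.0001). In all 3 genes the lowest RA library lay well above the highest TR library. CEP68 on the opposite strand covers 22.9% of the RAB1A exon bases and had a mean TR of 30.7, RA of 4.91 and TA of 3.52 RPKM. The part of CEP68 in the values of RAB1A was not tested.

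RAB26, linked to secretory granule maturation in gland cells, stood at the other end. It is annotated at chr16:2190804-2204166 on the plus strand of GRCh37. Its TR was 307 and 366 RPKM, from 1901 and 3763 reads, its RA 10.1, 3.89 and 5.06 and its TA 0.658 and 1.56. RA was 56.3-fold below TR (log2 ratio -5.82, SE 0.45, adjusted p = 1.1e-05). It was the highest RAB gene in both TR libraries and among the low ones in RA. No annotated gene overlaps its exons. TRAF7, 1532 bases downstream on the same strand, had a mean TR of 23.7, RA of 62.9 and TA of 28.4 RPKM, and PKD1, 4904 bases upstream on the other strand, had 16.8, 5.24 and 1.46, so neither coding neighbour shared the TR level of RAB26. The lncRNA gene SNHG19 lies 626 bases downstream on the opposite strand and was not analysed here.

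RAB24, an atypical RAB of autophagy, had a TR of 37 and 46 RPKM, an RA of 5.36, 8.74 and 6.64 and a TA of 1.84 and 1.6, with a log2(RA/TR) of -2.59 (SE 0.25, adjusted p = 4e-05). RAB36 had a TR of 12.8 and 16.2 RPKM, an RA of 4.7, 1.81 and 1.79 and a TA of 1.14 and 1.23, with a log2(RA/TR) of -2.48 (SE 0.41, adjusted p = 0.00091). RAB15, of endosomal recycling, had a TR of 25.6 and 25.7 RPKM, an RA of 8.12, 4.87 and 3.69 and a TA of 1.34 and 1.32, with a log2(RA/TR) of -2.26 (SE 0.32, adjusted p = 0.00035). In all 3 genes every RA library was below every TR library, and every TA library below every RA library.

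RAB23, a negative regulator of Hedgehog signalling, had a TR of 30.3 and 30.6 RPKM, an RA of 8.12, 5.33 and 6.8 and a TA of 1.97 and 2.77, with a log2(RA/TR) of -2.18 (SE 0.24, adjusted p = 9.7e-05). RAB6B had a TR of 20.9 and 23.3 RPKM, an RA of 7.07, 6.57 and 6.55 and a TA of 5.46 and 5.5, with a log2(RA/TR) of -1.70 (SE 0.17, adjusted p = 5.2e-05). Some of these genes share exon bases with another gene, and the strand setting of the counting is not given in the sources used here. BAG2 on the opposite strand covers 57.8% of the RAB23 exon bases and had a mean TR of 29, RA of 27.6 and TA of 17.9 RPKM. MXD3 on the same strand covers 44.8% of those of RAB24 and had 38.1, 6.72 and 3.61 RPKM. The part of these neighbours in the TR of RAB23 and RAB24 was not tested. Without the 10 genes whose exons another gene overlaps by over 10%, 17 RAB genes were called higher and 7 lower.

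The other lower calls were RAB19, RAB37, RAB3A, RAB3D and RAB17, with log2(RA/TR) from -1.34 to -0.72. The other higher calls were RAB4A, RAB11A, RAB8B, RAB1B, RAB25, RAB11B, RAB2A, RAB8A, RAB18, RAB38, RAB2B, RAB13, RAB5A, RAB14, RAB21 and RAB12, from 1.53 down to 0.50. RAB9A, RAB20, RAB22A, RAB27A, RAB27B, RAB28, RAB29, RAB33B, RAB35, RAB3B, RAB40B, RAB40C and RAB5B did not pass the test, with values from -0.34 to 0.84. RAB27B, of granule and exosome secretion, had an RA of 5.33, 6.57 and 18.4 RPKM, so its value of 0.84 (SE 0.63, adjusted p = 0.27) rests on RA replicate 3.

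Among the genes tested through TR alone, RAB41 had the highest TR, at 14.6 and 17.4 RPKM. Its RA was 0.276, 0.332 and 0.272 RPKM, from 6 to 8 reads, and its TA 0.0606 and 0, from 2 reads and none. PDZD11 on the opposite strand covers 49.3% of its exon bases and had a mean TR of 11.6, RA of 18.9 and TA of 18.4 RPKM. The other 5 had a mean TR from 1.79 RPKM in RAB44 to 3.15 in RAB42 and a mean RA from 0.0599 in RAB42 to 0.748 in RAB40A. RAB42 is listed at 0 in both TA libraries. RAB43 shares 79.3% of its exon bases with the read-through gene ISY1-RAB43. In the whole table, 2632 of the 14305 genes tested were tested through TR alone.

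**Figure D2:**
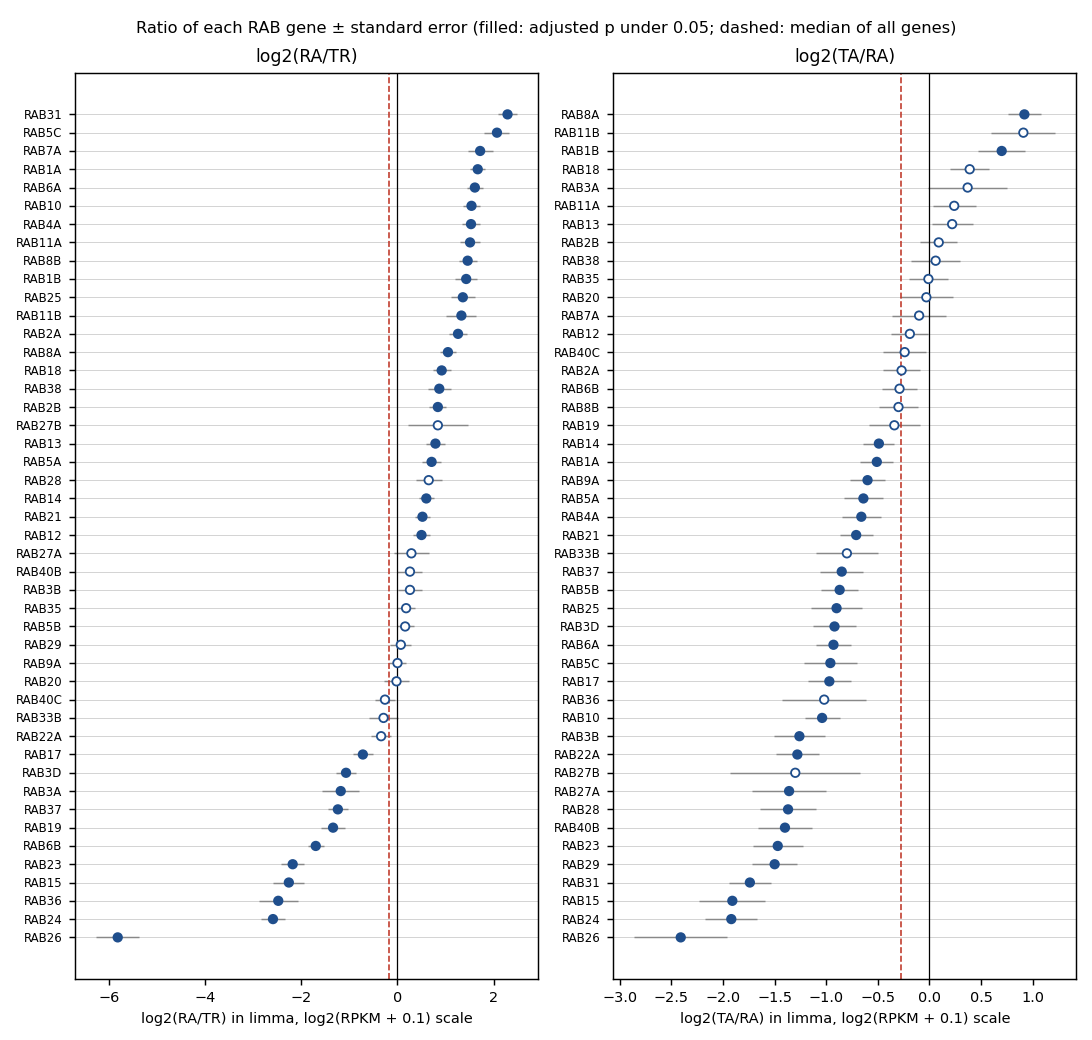
Log2(RA/TR) on the left and log2(TA/RA) on the right for the 46 RAB genes, each with its standard error from limma, filled where the adjusted p was below 0.05, with a dashed line at the median of all 10825 genes (-0.17 and -0.28). Log2(RA/TR) runs from -5.82 in RAB26 to 2.29 in RAB31, and log2(TA/RA) from -2.41 in RAB26 to 0.92 in RAB8A.

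The step from RA to TA is compared by log2(TA/RA), the translation index of the study. TA was higher than RA in 2 of the 46 RAB genes, RAB8A and RAB1B, and lower in 25, and 19 were not called. Of all genes at this level, 8.67% were higher and 28.3% lower. The median index was -0.69 over the RAB genes and -0.28 over all genes. Centring each library on its median over genes moved the all-gene median to 0.22. The RAB genes then had 6 higher and 10 lower calls and a median of -0.19. Of all 14305 genes tested, a wider set, 2713 were higher and 1404 lower in that scaling. The lower calls numbered 12 without TA replicate 1 and 16 without TA replicate 2, and the higher calls were 1 without either TR library, RA replicate 2, RA replicate 3 or either TA library. Both indices use the same RA libraries, so a high RA raises the first and lowers the second.

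RAB8A, which directs post-Golgi carriers to the surface and to the primary cilium, had a TR of 24.1 and 27.7 RPKM, an RA of 58.9, 48.7 and 53.7 and a TA of 99.8 and 103. Its TA was 1.89-fold above its RA (log2 ratio 0.92, SE 0.16, adjusted p = 0.0062), and the groups did not overlap. It was called with every library left out in turn. RAB1B had a TR of 26.5 and 20.6 RPKM, an RA of 80.8, 52.3 and 59.8 and a TA of 97.2 and 108, a log2 ratio of 0.70 (SE 0.23, adjusted p = 0.045). That call was lost without either TR library, RA replicate 2, RA replicate 3 or either TA library, with adjusted p from 0.075 to 0.17. Opposite-strand lncRNA genes cover 43.8% of the RAB1B exon bases, and 43.9% of those of RAB8A are covered, mostly by one such gene. These shares are over all GENCODE exon bases, 4931 in RAB8A. The exon length behind the RPKM of RAB8A came out at 2177 bases. How much of the overlap fell in counted exons was not tested. The lncRNA genes were not analysed here.

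RAB11B, of the recycling endosome, had a TR of 29 and 16.6 RPKM, an RA of 65.2, 41.5 and 62.5 and a TA of 87.4 and 124. Its log2(TA/RA) was 0.91 (SE 0.31, adjusted p = 0.051), with both TA libraries above all 3 RA libraries. RAB18, of the ER and lipid droplets, had a TR of 9.21 and 7.64 RPKM, an RA of 17.3, 15.4 and 15.2 and a TA of 23.6 and 18.5, with an index of 0.39 (SE 0.19, adjusted p = 0.14). RAB3A, of regulated exocytosis, had a TR of 21.2 and 25.6 RPKM, an RA of 11.7, 6.59 and 13.9 and a TA of 9.45 and 18.6, with an index of 0.37 (SE 0.38, adjusted p = 0.48). Its TA and RA libraries overlapped.

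At the low end, the index was -2.41 (SE 0.45, adjusted p = 0.0069) in RAB26, -1.92 (SE 0.25, adjusted p = 0.0032) in RAB24 and -1.91 (SE 0.32, adjusted p = 0.0049) in RAB15. RAB26 had 37 and 64 reads in the TA libraries. RAB31 followed with -1.74 (SE 0.20, adjusted p = 0.0026), so its mean of 62.1 RPKM in RA came down to 18.6 in TA. RAB29, a trans-Golgi RAB that binds the kinase LRRK2 and stands in no role list here, had a TR of 8.86 and 13 RPKM, an RA of 11.9, 10.8 and 11.1 and a TA of 3.68 and 4.2, with an index of -1.50 (SE 0.22, adjusted p = 0.0037). In all 5 genes every TA library lay below every RA library.

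The other lower calls were RAB23, RAB40B, RAB28, RAB27A, RAB22A, RAB3B, RAB10, RAB17, RAB5C, RAB6A, RAB3D, RAB25, RAB5B, RAB37, RAB21, RAB4A, RAB5A, RAB9A, RAB1A and RAB14, with log2(TA/RA) from -1.47 to -0.49. Of the 25 lower calls, 12 held with every library left out in turn. The calls of RAB14, RAB17, RAB1A, RAB21, RAB25, RAB27A, RAB37, RAB3D, RAB40B, RAB4A, RAB5A, RAB5C and RAB9A were each lost without TA replicate 1. Those of RAB14, RAB1A, RAB25, RAB37, RAB3D, RAB4A, RAB5A and RAB9A were also lost without TA replicate 2. RAB14 was lost without each RA library too, RAB25 and RAB27A without either TR library, RAB4A and RAB5A without either TR library or RA replicates 2 or 3, RAB9A without RA replicates 2 or 3, RAB5C without RA replicate 3, and RAB1A without any 1 of the 7 libraries. RAB27B and RAB36 had values of -1.30 and -1.02 but an SE of 0.63 and 0.41 and were not called. RAB7A stayed at -0.10 (SE 0.26, adjusted p = 0.8) and was among the 3 highest RAB genes in both TA libraries.

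Across both steps, log2(TA/TR) was called higher in 17 of the 46 RAB genes and lower in 18, where 21.9% of all genes were higher and 45.7% lower. Its median was -0.12 over the RAB genes and -0.51 over all genes. With each library centred on its median, which moved the all-gene median to 0.66, 26 RAB genes were higher and 8 lower with a median of 1.05, and with scaling to the upper quartile 20 were higher and 13 lower with a median of 0.26. The median was 0.06 without TA replicate 1. RAB11B had the highest value, 2.24 (SE 0.34, adjusted p = 0.00042), then RAB1B at 2.13 (SE 0.25, adjusted p = 9.1e-05) and RAB8A at 1.97 (SE 0.18, adjusted p = 2.4e-05). RAB26 had the lowest, -8.22 (SE 0.49, adjusted p = 2.3e-06). Of the 17 higher calls 12 held with every library left out in turn, and RAB10, RAB31, RAB5C and RAB6A were lost without TR replicate 2, RAB10 and RAB31 also without RA replicate 2, RA replicate 3 or TA replicate 2, and RAB38 without TR replicate 1 or TA replicate 1. Of the 18 lower calls 13 held, and RAB27A, RAB33B and RAB9A were lost without either TR library or TA replicate 1, RAB27A also without RA replicate 3, RAB3B without TR replicate 1 or TA replicate 2 and RAB40B without TR replicate 2.

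Among the 46 RAB genes, grouped by site of action, those of recycling and of the ER and Golgi had the highest median log2(RA/TR). Among all genes at this level, 24.7% were higher and 34.2% lower in RA than in TR. In TA against RA, 8.67% of them were higher and 28.3% lower. The ER and Golgi list holds 18 genes, and only those at this level are counted. Of the rest, RAB30, RAB33A, RAB41 and RAB43 were called lower in RA, with log2(RA/TR) from -5.35 to -1.07. RAB33A, RAB41 and RAB43 were tested through TR alone, so they had to differ. Of 10 ER and Golgi genes, 6 had an RA above TR and 3 below, with a median log2(RA/TR) of 0.88, and in TA against RA 1 was higher and 2 were lower, with a median of -0.31. Of 7 recycling genes, 5 were higher and 1 lower in RA, with a median of 1.33, and 4 were lower in TA, with a median of -0.49. RAB15 was the gene lower in RA in that group. Of the 4 late endosome and lysosome genes, 3 were higher in RA, with a median of 0.68, and 1, RAB9A, was lower in TA.

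The early endosome genes were low in TA, though not alone among the groups. Of the 9, 8 were called lower in TA than in RA, beside 25 of all 46 RAB genes and 28.3% of all genes. Their median log2(TA/RA) was -0.96, near that of the exocytosis genes and above that of the cilium group. RAB20 was the exception at -0.03 (SE 0.26, adjusted p = 0.96). In RA against TR, 4 of the 9 were higher and 2 lower, with a median of 0.16. Of the 11 exocytosis genes, 4 were higher and 4 lower in RA (median 0.29), and 1 was higher and 6 lower in TA (median -0.92). Of the 4 genes of the cilium and other sites, 1 was lower in RA (median 0.00) and 3 were lower in TA (median -1.39). These groups are small, their differences were not tested, and 4 of the 8 early endosome calls in TA, RAB17, RAB21, RAB5A and RAB5C, were lost without TA replicate 1. With each library centred on its median RAB5B was lost as well, and RAB22A, RAB24 and RAB31 kept the call. The list sets these places, while above RAB24 is named for autophagy and RAB31 for traffic between the trans-Golgi network and endosomes.

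**Figure D3:**
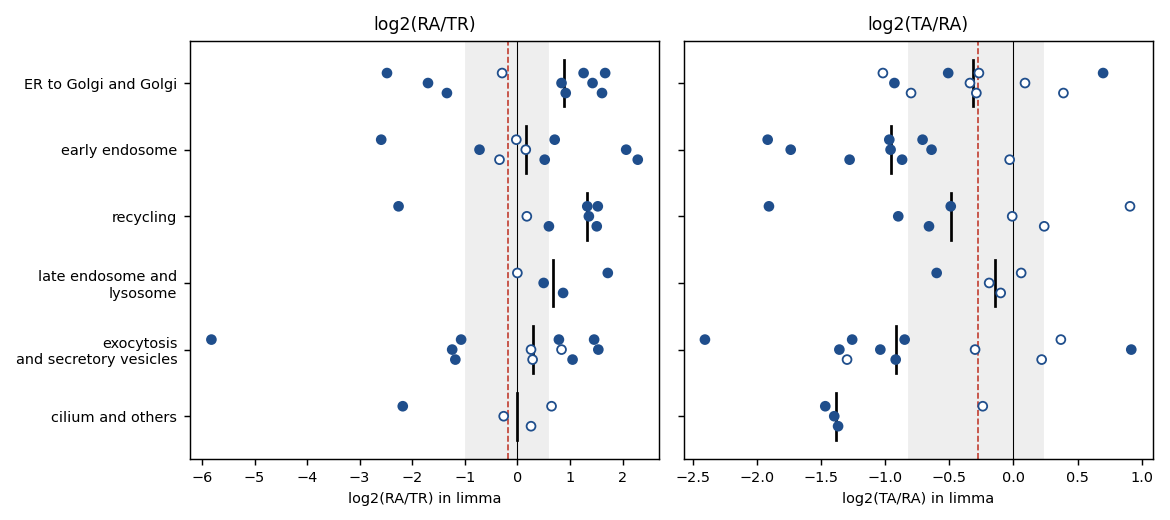
Log2(RA/TR) on the left and log2(TA/RA) on the right by site of action. Each point is a RAB gene at 1 RPKM or more in TR, RA and TA, filled where the adjusted p was below 0.05. A black bar marks the group median, grey shading the interquartile range of all 10825 genes and a dashed line their median. The early endosome genes lie below 0 in log2(TA/RA), with a median of -0.96, and the recycling genes have the highest median log2(RA/TR), 1.33.

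Many close relatives differed at 1 step or at both. Both log2 ratios were compared within 16 pairs of paralogues, over every combination of libraries. With 3 and 2 libraries an exact permutation test cannot reach 0.05, so these differences are given without a test. The sign was the same in all combinations in 9 of the 16 pairs for log2(RA/TR), in 10 for log2(TA/RA) and in 13 for log2(TA/TR). The pairs within the RAB3, RAB5 and RAB11 groups reuse the same genes. How often unrelated genes at this level part in the same way was not computed, so the counts do not set paralogues apart from them. The coding sequences of the 16 pairs were 67.5% to 80.5% identical over their aligned bases. RAB6A and RAB6C were 91.8% and RAB40A and RAB40B 89.5% identical, so reads of these last 2 pairs may not be told apart in full.

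In the RAB1 pair, log2(RA/TR) differed little, 1.67 in RAB1A and 1.43 in RAB1B, with a difference from -0.24 to 0.80 over the combinations. Their translation indices were -0.51 and 0.70, and RAB1A was lower by 1.20 on the log2 scale (-1.71 to -0.78). RAB1A had a TA of 54 and 54.1 RPKM, below both TA values of RAB1B. In the RAB8 pair, the index of RAB8A was higher by 1.22 (0.98 to 1.39), and its log2(RA/TR) was below that of RAB8B by 0.41 (combinations from -0.66 to -0.10). RAB8B was the rarer mRNA, with a TR of 3.21 and 2.81 RPKM, an RA of 8.56, 7.97 and 8.78 and a TA of 7.3 and 6.4.

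RAB11A had a TR of 16.8 and 14 RPKM, an RA of 55.8, 36.2 and 41.4 and a TA of 49.1 and 54.1. Its translation index of 0.24 was below that of RAB11B by 0.68 on the log2 scale with 1 sign in all combinations, while log2(RA/TR) was 1.51 and 1.33 in this pair, with combinations from -0.35 to 0.58. RAB25, whose index was -0.90, was below RAB11B by 1.81 (1.06 to 2.95) and below RAB11A by 1.14 (0.45 to 1.95). Its RA exceeded that of both relatives in every library, and its TA of 52.4 and 54.4 RPKM lay beside the 49.1 and 54.1 of RAB11A. The 3 relatives thus had log2(RA/TR) between 1.33 and 1.51 and indices from -0.90 to 0.91.

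The RAB6 and RAB22A/RAB31 pairs differed more in log2(RA/TR) than in the translation index. The log2(RA/TR) of RAB6A was above that of RAB6B by 3.31 (2.91 to 3.74), although RAB6B had the higher TR in every library, and its translation index was below that of RAB6B by 0.64 (combinations from -0.86 to -0.44). RAB22A, of early endosomes, had a TR of 10.7 in both libraries, an RA of 9.04, 8.32 and 8.09 and a TA of 2.92 and 4.04, and its log2(RA/TR) of -0.34 was below that of RAB31 by 2.63 (combinations from -2.88 to -2.38). Both had a low translation index, -1.28 and -1.74, with RAB22A above RAB31 by 0.46 (0.37 to 0.55). In TR the pair lay close, with 14.5 and 10.9 RPKM in RAB31.

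The RAB5 genes, which all serve early endosome fusion, also differed in log2(RA/TR). RAB5A had a TR of 21.6 and 20.2 RPKM, an RA of 28, 37.2 and 38.4 and a TA of 20.1 and 23.9. RAB5B had a TR of 21 and 27.1 RPKM, an RA of 28.2, 27.7 and 24.2 and a TA of 15 and 14.1. Their log2(RA/TR) was 0.71 and 0.16, against 2.07 in RAB5C, and RAB5B minus RAB5C was -1.91 (-2.60 to -1.19). Their translation indices, -0.64, -0.87 and -0.96, differed with both signs over the combinations.

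Among the RAB3 genes, RAB3A had a translation index above that of RAB3B by 1.63 (0.49 to 2.94) and above that of RAB3D by 1.29 (0.37 to 2.14). RAB3B had a TR of 17.8 and 12.1 RPKM, an RA of 13.9, 18.4 and 21.2 and a TA of 7.98 and 6.63. RAB3D had a TR of 17.5 and 22.9 RPKM, an RA of 11.4, 8.17 and 9.28 and a TA of 4.83 and 5.15. RAB3A and RAB3D had log2(RA/TR) of -1.18 and -1.07, a difference of -0.11 (-0.58 to 0.42), and RAB3B one of 0.26 that did not pass the test. RAB3A minus RAB3B was -1.43 in that ratio (-2.54 to -0.50) and RAB3B minus RAB3D 1.32 (0.27 to 2.09).

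RAB2A had a TR of 13.1 and 13.7 RPKM, an RA of 37.9, 30.2 and 29.1 and a TA of 25.1 and 28.4. RAB2B had a TR of 7.66 and 8.11 RPKM, an RA of 12.7, 15.3 and 14.6 and a TA of 16.8 and 13.5. The log2(RA/TR) of RAB2A was above that of RAB2B by 0.42 (0.20 to 0.82), and their translation indices differed with both signs over the combinations. These GTPases act between the ER and the Golgi, like the RAB1 pair.

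RAB40B and RAB40C, which join a RAB domain to a ubiquitin ligase adaptor, had similar TR, 8.55 and 8.99 RPKM in RAB40B and 8.54 and 9.75 in RAB40C. RAB40B had an RA of 13.2, 9.21 and 9.59 RPKM and a TA of 3.1 and 4.97. RAB40C had an RA of 7.58, 6.82 and 8.54 RPKM and a TA of 5.51 and 7.47. The translation index of RAB40B was below that of RAB40C by 1.15 (combinations from -1.60 to -0.74), so the order of the 2 genes in RA was turned in TA, and its log2(RA/TR) was above that of RAB40C by 0.52 (0.17 to 0.91). RAB27A, which docks secretory granules, had a TR of 3.03 and 2.45 RPKM, an RA of 5.27, 2.41 and 2.96 and a TA of 1.01 and 1.54. RAB27B had a TR of 5.94 and 3.86 and a TA of 1.84 and 6.38, and neither ratio parted the RAB27 pair over the combinations.

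**Figure D4:**
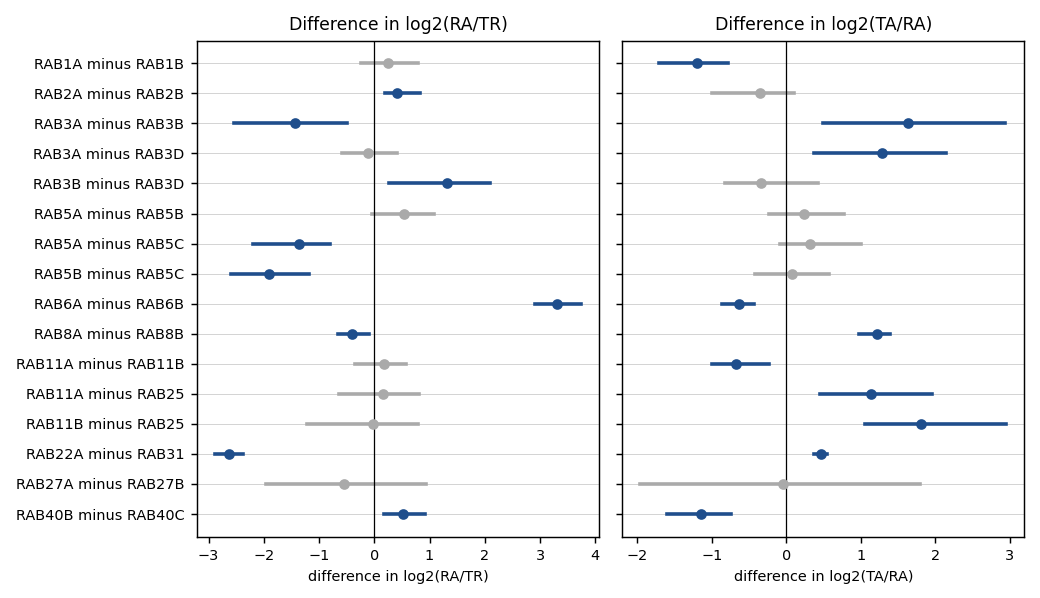
Difference in log2(RA/TR), left, and in log2(TA/RA), right, between the genes of 16 pairs of RAB paralogues, with a point at the difference in limma and a line over all combinations of libraries, blue where every combination has 1 sign and grey otherwise. RAB6A minus RAB6B is the highest on the left, at 3.31, and RAB11B minus RAB25 on the right, at 1.81.

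RAB mRNAs were rich in untranslated sequence. In the canonical transcripts of GENCODE, the untranslated share of the mRNA was 78.2% at the median of the 46 RAB genes and 50.8% at that of 10181 genes matched, and the 3′ untranslated length was 2164 and 1315 bases. G or C filled 65.3% of the wobble positions at the RAB median and 59.7% at that of all genes. Across the 46 RAB genes, which share their libraries, log2(RA/TR) went down with this wobble share (Pearson r = -0.40, Spearman rho = -0.42), and across 10122 genes r was -0.21. Without RAB26, r was -0.36 over 45 genes, and over the 36 with at most 10% of their exon bases overlapped it was -0.50. Genomic span went the other way with log2(RA/TR) (r = 0.37, against 0.20 across all genes), and the wobble share and the span were themselves related (r = -0.48 over the 46). The untranslated share was related to the translation index with r = -0.18 over the RAB genes and -0.23 over all genes, and without RAB26 it was -0.29 over 45. These are descriptions across genes, which are not independent replicates.

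Split at the median of the wobble share, the 23 RAB genes with 30.2% to 64.9% had 15 higher and 1 lower call in log2(RA/TR), and a median of 0.84. The 23 with 65.7% to 92.2% had 7 higher and 10 lower calls, and a median of -0.02. Among all genes at this level, 24.7% were higher and 34.2% lower in RA. They were not split by wobble share, so the counts do not show whether the split is particular to RAB genes. RAB23 was the low-share gene with the lower call. In log2(TA/RA), these groups had medians of -0.66 and -0.85, and both higher calls, RAB8A and RAB1B, fell in the group with more G and C. In the windows shown above, RAB11A and RAB11B had G or C at 4 and 18 of 20 wobble positions and log2(RA/TR) of 1.51 and 1.33, which differed with both signs over the combinations of libraries.

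**Figure D5:**
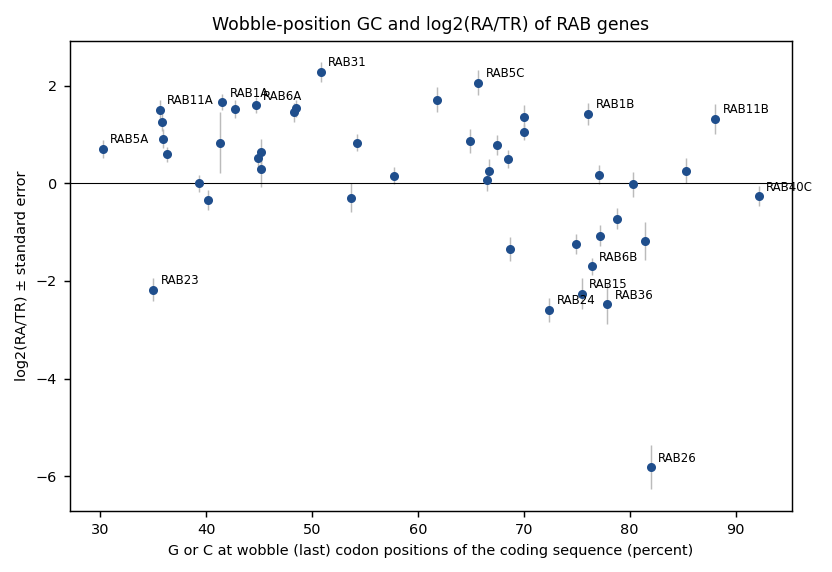
Log2(RA/TR) with its standard error from limma against the share of wobble positions with G or C, for the 46 RAB genes. Genes on the left lie mostly above 0, with RAB23 far below, and the genes below -1 other than RAB23 lie on the right, with RAB26 lowest at -5.82.

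Exchange factors, GTPase-activating proteins and effectors of RAB proteins, taken from lists, had smaller shares of higher calls in RA than the RAB genes, a difference that was not tested. CHML, an escort protein gene of RAB prenylation, had a log2(RA/TR) of -0.87 (SE 0.22, adjusted p = 0.0085) and a log2(TA/RA) of -1.60 (SE 0.22, adjusted p = 0.0035). It was the lowest called gene of the prenylation list and does not stand for that list. RABAC1 of the same list was called higher in RA, with a log2(RA/TR) of 0.59 (SE 0.20, adjusted p = 0.028). Of 30 exchange factors, 3 were higher and 14 lower in RA, and none was higher and 19 were lower in TA. RABIF had the lowest log2(RA/TR) of these, -2.15 (SE 0.24), and HPS4, of the exchange factor for RAB32 and RAB38, the lowest log2(TA/RA), -1.59 (SE 0.19). CCZ1, of the RAB7 exchange factor, had the highest log2(RA/TR), 1.36 (SE 0.21), and has a near-identical copy, so its reads are uncertain. The least low of the called translation indices was that of ANKRD27, which acts on RAB21, at -0.68 (SE 0.17).

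Of the 14 subunits of TRAPP, the exchange factor complex for RAB1, 3 were higher and 3 lower in RA and 3 were higher and 5 lower in TA. TRAPPC11 (0.83, SE 0.19) and TRAPPC2 (-1.15, SE 0.21) marked the ends of log2(RA/TR) among those called, and TRAPPC4 (1.16, SE 0.18) and TRAPPC10 (-1.41, SE 0.23) those of log2(TA/RA). Of 36 GTPase-activating proteins, 4 were higher and 11 lower in RA, and 1 was higher and 17 lower in TA. RAB3GAP1 (1.02, SE 0.23) and TBC1D16 (-1.48, SE 0.29) marked the ends in log2(RA/TR), and TBC1D15 (0.59, SE 0.17) and TBC1D14 (-1.86, SE 0.20) those in log2(TA/RA). Of 34 effectors, 3 were higher and 11 lower in RA, and none was higher and 13 were lower in TA. USO1, a tether that RAB1 recruits, had a log2(RA/TR) of 1.83 (SE 0.25), with a mean TR of 19.3 and RA of 70.4 RPKM, and the RAB7 effector RILP had -1.85 (SE 0.32). The RAB27 effector SYTL1 had the lowest translation index, -2.09 (SE 0.29), and RILPL2 the least low of those called, -0.72 (SE 0.23). The median log2(RA/TR) was -0.60 over the exchange factors, -0.27 over the GTPase-activating proteins and -0.31 over the effectors, against 0.51 over the RAB genes and -0.17 over all genes. Of all genes, 24.7% were higher and 34.2% lower in RA and 28.3% lower in TA, so the lower calls in RA of the GTPase-activating proteins and effectors lay near the share of all genes.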

How the data were processed

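The authors mapped GRO-seq, RNA-seq and polysome reads to hg19 with TopHat, ran HTSeq-count over exons and deposited the RPKM per gene and library. Versions, counting mode, strand setting and annotation are not given in the sources used here. The RPKM were used without further normalization. Library sizes were recovered from the steps between values, which come out as whole reads (within 0.01, for 100% of values above 0).

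RAB genes were taken by symbol. These genes and the lists of roles, paralogues and regulators were chosen with earlier results of these data known. All 7 libraries entered 1 fit in limma 3.58.1 (R 4.3.3; trend in eBayes, two-sided, 4 residual degrees of freedom). On simulated data for RA against TR, 157 of 200 genes changed by a log2 of 2 and 7 of 14105 unchanged genes were called. The simulation drew independent noise and changed few genes. In the data 2743 of the 14305 genes tested were called higher and 6870 lower, so the simulated rates need not carry over. Genes given in all libraries were the 8 highest in RA, the 6 highest and lowest in log2(RA/TR), the 5 highest and lowest in log2(TA/RA), genes seen in TR alone at 5 RPKM or more, and paralogue groups. For regulators, the highest and lowest called gene of each list was named. In the prenylation list 1 gene and the list's counts are not reported here. Sequences and overlaps came from GENCODE release 44 lifted to GRCh37. The exon lengths behind the RPKM differ from the joined GENCODE exons in some genes, such as RAB21, with 2627 against 16048 bases. Overlap and untranslated shares may therefore not describe the exons that were counted. Python 3.11.15 and matplotlib 3.10.9 were used. Alternatives covered the pseudocount, the filter on low values, scaling, the trend, overlapping genes, a replicate block and each library left out.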

Additional observations from a re-analysis of the deposited data

How the results depend on the processing

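Counts and medians below are over the RAB genes at the level each setting allows. A pseudocount of 1 or no trend in eBayes left 1 RAB gene higher in TA than in RA. With at least 2 RPKM in each parameter (40 genes), RA against TR had 6 lower and a median of 0.68, and the TA against TR median was 0.13. With no filter (61 genes), RA against TR had 20 lower and a median of 0.00, TA against RA 1 higher, and TA against TR 28 lower and a median of -0.60. With each library centred on its median, the medians were 1.18, -0.19 and 1.05, TA against RA had 6 higher and 10 lower, and TA against TR 26 higher and 8 lower. Changed signs in that scaling are named only for genes called in it or in the main fit. Of these, RAB14 had a log2(TA/RA) of 0.01, and log2(TA/TR) turned positive in RAB20 (1.13), RAB21 (0.98), RAB40C (0.67), RAB9A (0.58), RAB5B (0.46), RAB3B (0.17), RAB27A (0.11), RAB33B (0.09) and RAB40B (0.04). Upper quartile scaling gave medians of 0.69, -0.49 and 0.26. Without genes overlapped over 10% of their exon bases, RA against TR had 7 lower, TA against RA 0 higher, and the TA against TR median was -0.33. Without each library in turn, RA against TR had 17 to 23 higher, 9 to 11 lower and a median of 0.43 to 0.54; TA against RA 1 to 2 higher, 12 to 24 lower and a median of -0.76 to -0.55; and TA against TR 13 to 17 higher, 14 to 19 lower and a median of -0.20 to 0.06. In each comparison, 322 values of single RAB genes came from fits with a library left out. Of these, 305 stayed on their side of the threshold in RA against TR, 271 in TA against RA and 293 in TA against TR. No value changed sign that was called with all libraries or with 1 left out. Sign changes of values called in neither fit were not counted. The cause of these moves was not tested beyond the settings' own construction.

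Whether equal replicate numbers mark parts of 1 culture is not stated, and the numbers were not used as pairs: same-numbered libraries deviated with r = 0.149 between TR and RA, -0.562 between RA and TA and 0.02 between TR and TA over 10825 genes. The fit with the replicate block, in which RA replicate 3 has no partner, gave 18 higher and 10 lower in RA against TR with a median of 0.43, 0 higher and 5 lower in TA against RA (RAB15, RAB22A, RAB24, RAB29 and RAB31, with RAB8A at an adjusted p of 0.058 in limma), and 15 higher and 16 lower in TA against TR. With the TA numbers crossed, a pairing added after seeing the data, TA against RA had 2 higher and 20 lower, and the RA against TR median was 0.43. TR, with the smallest libraries, limits what the first step can show.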
